A study of Mus musculus with 12 samples.

Results

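Trp53, Trp63 and Trp73 encode the 3 members of the p53 family of transcription factors and were measured by 7 probe sets, of 22626 tested, in 12 salivary tumors of MMTV-ras transgenic mice. The members are 3 of the 12394 genes that the tested probe sets name. They were chosen by symbol: 3 probe sets carry the single symbol Trp63 and 2 the single symbol Trp73 in the array annotation, and 2 are Trp53 by the study's own gene list, since the annotation used here leaves them without a name. That list holds the probe sets that the study selected as differing among the 3 genotypes in these same arrays. A Trp53 probe set without such a difference would have stayed unnamed. The Trp53 tests below thus repeat that selection and are no independent support for it. No probe set with several symbols names one of the 3 genes. The tumors fall into 3 genotypes of 4 tumors each: MT tumors came from MMTV-ras/p53R172H/R172H mice, KO tumors from MMTV-ras/p53-/- mice, and WT tumors from MMTV-ras/p53+/+ mice. All mice carry a ras oncogene under the mouse mammary tumor virus promoter, on a mixed C57BL/6 and BALB/c background, and were adult. Neither the age nor the sex of the mouse behind each tumor is given in the sources used here, nor is it stated that each tumor came from a different mouse, so p-values cover only tumor-to-tumor spread, which may be technical. In the cohorts of the study, the median age at salivary tumor onset was lowest in p53-/- and highest in p53+/+ mice. Age may therefore differ between the genotypes here, and its part in the differences was not tested. The R172H allele is a knock-in with 1 amino acid exchanged, and the null allele carries a neo cassette. The study selected small tumors with adenocarcinoma histology and sequenced the part of Trp53 that encodes the DNA binding domain in WT tumors.

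p53, the product of Trp53, is held low in unstressed cells by the ubiquitin ligase Mdm2, and DNA damage or oncogene activity stabilizes it, after which it activates genes for cell cycle arrest, DNA repair and cell death. R172H is the mouse form of a hotspot mutation of human cancers. The mutant protein has lost most sequence-specific DNA binding and often accumulates in tumors, and it can bind the other family members. p63, from Trp63, maintains basal cells of stratified and glandular epithelia and marks basal and myoepithelial cells of salivary glands. p73, from Trp73, is needed for multiciliated cells and in the nervous system. Trp63 and Trp73 both make full-length proteins and short forms from an inner promoter, and the short forms oppose the full-length ones.

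Each tumor was hybridized to 1 Affymetrix mouse array, whose values are log2 levels after robust multi-array averaging (RMA), so a difference of 1 is a 2-fold change of signal. Values of different probe sets are not on a common scale, so a rank within an array places a probe set's signal among the others and does not compare transcript levels. Markers of glandular epithelium ranked high in signal in all 12 tumors: Krt8 and Epcam, both of luminal epithelial cells, ranked above 96.1% and 98.6% of probe sets in every tumor, and Aqp5, the water channel of acinar cells, above 95.7%. Control probe sets set some arrays apart. The 27 probe sets for the poly-A control RNAs, which are added before labeling, averaged between 10.38 and 10.56 in MT1, MT2 and MT3 but between 3.98 and 4.23 in MT4 and all KO and WT tumors. 18S ribosomal RNA read 8.90 to 9.33 in WT1, WT2 and WT3 and 6.41 to 8.03 in the other 9 tumors. No source used here names a batch, and results that move with either control are given with these values beside them.

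The targeted gene itself was examined first. Trp53 read lowest in KO tumors at both of its probe sets. At 1426538_a_at the MT tumors had levels of 8.80, 9.03, 8.82 and 7.88, the KO tumors 5.85, 6.33, 6.24 and 6.36, and the WT tumors 7.89, 7.38, 8.01 and 8.01. Every KO tumor lay below every other tumor, MT1 to MT3 lay above all WT tumors, and MT4 lay inside the WT range. At 1427739_a_at the MT tumors had 9.16, 9.29, 9.13 and 8.18, the KO tumors 6.37, 6.70, 6.89 and 6.72, and the WT tumors 8.45, 8.02, 8.33 and 8.53. The picture was the same: all KO tumors were lowest, 3 MT tumors were above all WT tumors, and MT4 fell among the WT tumors. Of all probe sets, 1.29% had every KO tumor below every MT and every WT tumor. In the rank order within each array, the 2 Trp53 probe sets stood at the 66.0th to 87.5th percentile in MT tumors, the 33.1st to 48.7th in KO tumors and the 60.0th to 77.4th in WT tumors.

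**Figure D1:**
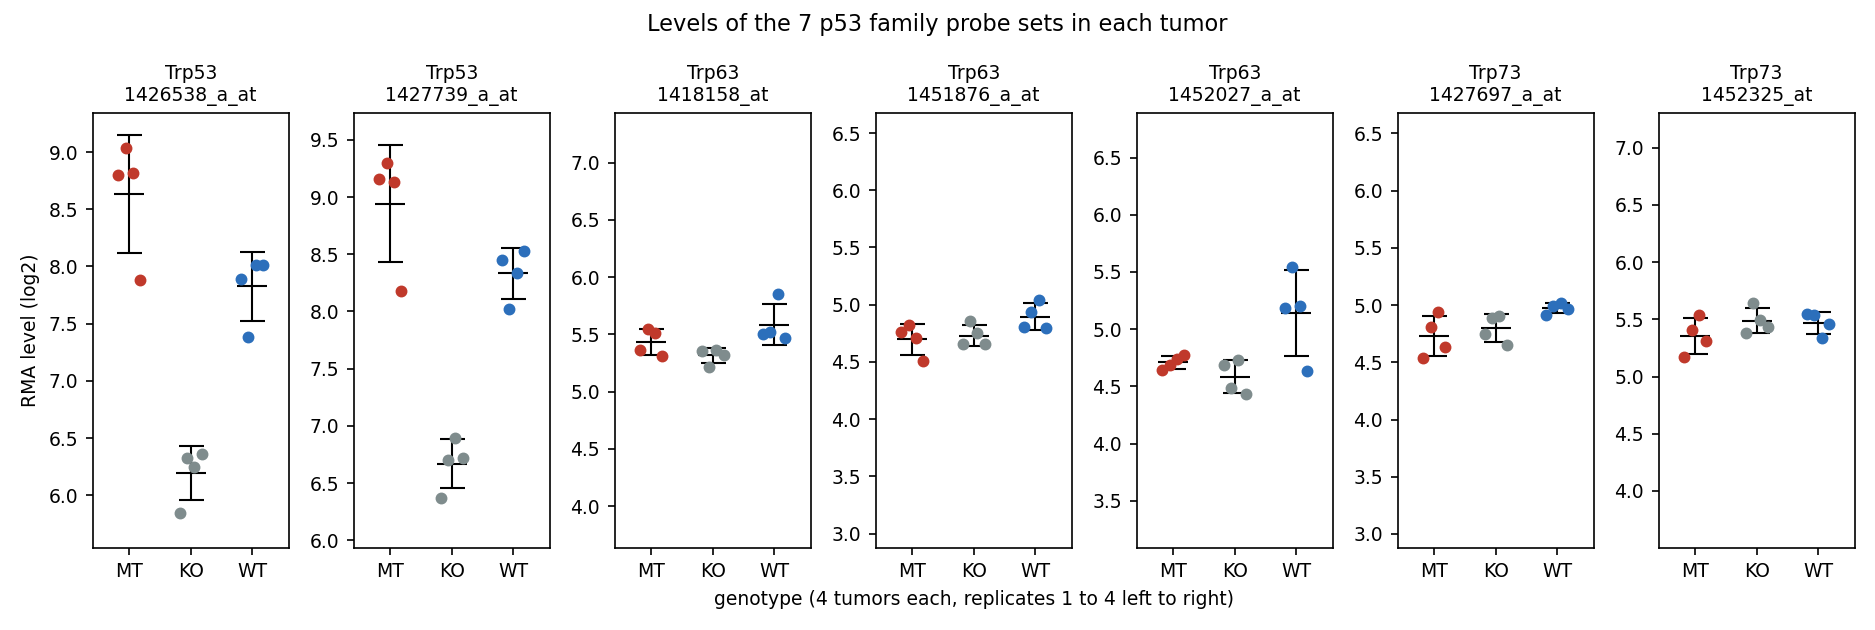
Each panel shows 1 probe set, with the RMA level (log2) of every tumor on the vertical axis and the genotypes MT, KO and WT from left to right; points are tumors, bars are the mean ± SD of 4 tumors, and every vertical axis spans the same number of log2 units. The 4 KO tumors are lowest for Trp53 at both probe sets, whereas the genotypes lie close together for Trp63 and Trp73, apart from 3 WT tumors at the Trp63 probe set 1452027_a_at.

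Trp53 fell in KO tumors relative to WT tumors, to 6.20 ± 0.24 against 7.83 ± 0.30 at 1426538_a_at and to 6.67 ± 0.22 against 8.33 ± 0.22 at 1427739_a_at (SD, n = 4 each). The KO minus WT difference was -1.63 at 1426538_a_at (SE 0.243, limma adjusted p = 0.0101), a signal 3.09-fold lower, and -1.66 at 1427739_a_at (SE 0.229, limma adjusted p = 0.00798), a signal 3.16-fold lower. Both Trp53 probe sets passed where 2.64% of all probe sets passed in that direction and 4.57% in either. They ranked 62nd and 37th by p in this comparison. The call was kept with each of the 12 tumors left out in turn and was lost only with the methods' t-test, with adjusted p = 0.0686 and 0.0633. The KO mice themselves carry the null allele, so it is present in all cells of a KO tumor. A tumor is also a mixture of cells, and the part of its makeup in the size of the difference was not tested. Whether either probe set reads sequence that the null allele has lost is not given in the sources used here, so the signal left in KO tumors can be read neither as transcript nor as background.

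Other measures also set WT tumors apart from KO tumors. The mean level of 12 markers of salivary acini and demilunes ranged from 8.25 to 9.46 in KO tumors and from 9.92 to 11.3 in WT tumors, and 2 of the 12, Prpmp5 and Dcpp1, secretory proteins of salivary glands, fell in KO tumors. Of 12 macrophage markers 2 fell, Cd68 and Lyz2, and of 12 endothelial markers 3 fell, Pecam1, Vwf and Emcn, where 4.58% of all genes were called in either direction. The part of these shifts in the Trp53 difference was not tested. WT4, whose 18S level of 7.51 was within the KO range of 7.36 to 8.03, had Trp53 levels of 8.01 and 8.53, above every KO tumor. WT4 is a single tumor, and the part of the 18S level in the Trp53 difference was not tested.

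Between the genotypes without wild-type p53, Trp53 was the single gene called. The MT tumors averaged 8.63 ± 0.51 and the KO tumors 6.20 ± 0.24 at 1426538_a_at, and the MT tumors 8.94 ± 0.51 and the KO tumors 6.67 ± 0.22 at 1427739_a_at. The MT minus KO difference was 2.44 at 1426538_a_at (SE 0.243), a signal 5.42-fold higher, and 2.27 at 1427739_a_at (SE 0.229), 4.83-fold higher, with a limma adjusted p of 0.00675 for each. These 2 were the only probe sets called of all 22626, or 0.00884%, and they ranked 1st and 2nd by p. The number called depended on the setting: it was 235 without MT4, 44 with array weights, and 13 with a block for the poly-A control split, Trp53 not among them. The lowest MT tumor was 1.52 above the highest KO tumor at 1426538_a_at and 1.29 above it at 1427739_a_at, and 2.88% of all probe sets had every MT tumor above every KO tumor. The call was lost in several alternatives. In a fit to the 8 MT and KO tumors alone the adjusted p was 0.168 for both probe sets, with the methods' t-test 0.374, and with a block for the tumor number 0.0768. It was kept with each tumor left out, with an adjusted p of 0.0492 for both at the most, without MT3, and of 0.000196 and 0.000184 without MT4. In the fit with a block for the poly-A control split, which sets MT4 alone against the KO tumors, the difference was 1.69 with adjusted p = 0.0783 at 1426538_a_at and 1.51 with adjusted p = 0.0674 at 1427739_a_at.

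A higher Trp53 level in MT than in WT tumors was seen in the means but did not pass the test. The MT minus WT difference was 0.81 at 1426538_a_at (SE 0.243, 95% interval 0.28 to 1.34, limma adjusted p = 0.126) and 0.61 at 1427739_a_at (SE 0.229, 95% interval 0.11 to 1.11, limma adjusted p = 0.191), where 0.367% of all probe sets passed. MT4 decided the call. Without it the differences were 1.06 and 0.86, with limma adjusted p = 0.0169 and 0.0187. MT1, MT2 and MT3 stood at least 0.79 and 0.60 above the highest WT tumor at 1426538_a_at and at 1427739_a_at, and MT4 was 1.00 and 1.01 below their mean. The same 3 tumors are those with the high poly-A controls. With a block for that split the difference was 0.06 at 1426538_a_at and -0.15 at 1427739_a_at, both from MT4 alone against the WT tumors (limma adjusted p = 0.971 and 0.886). The part in the MT level of whatever set the poly-A controls apart was not tested, and within the tumors that share the low poly-A controls only 1 is MT.

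**Figure D2:**
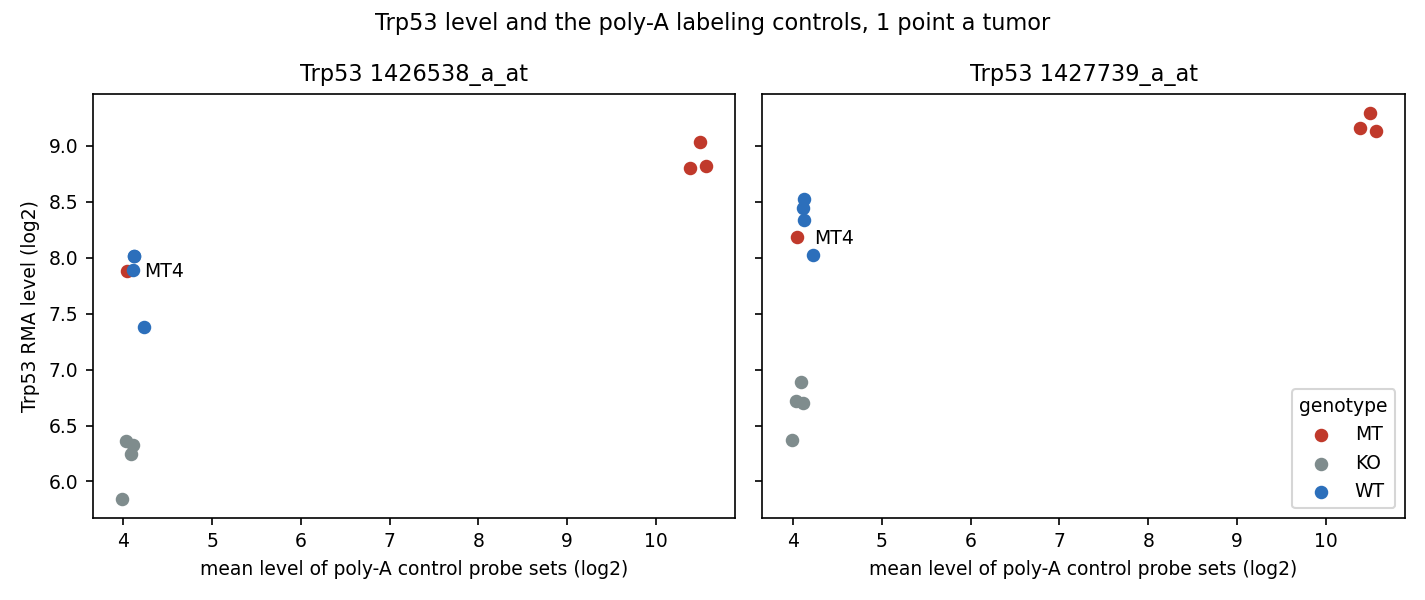
Each point is 1 tumor, with the mean level of 27 poly-A control probe sets on the horizontal axis and the Trp53 level on the vertical axis (both log2), in 1 panel for each Trp53 probe set. MT1 to MT3 lie at the right, at 10.38 to 10.56, and are highest for Trp53, whereas MT4 lies among the WT tumors at the left and all KO tumors lie below both.

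With 3 genotypes fitted together, the F test over all probe sets gave Trp53 an adjusted p of 0.00517 at both probe sets (limma), where 2.34% of probe sets passed, and neither lost this call under any alternative run. In the order of mean levels MT came first, then WT, then KO, at both probe sets; the difference of the first 2 in that order did not pass the test. The 2 probe sets followed each other closely, with r = 0.993 over the 12 tumors, as readings of 1 gene in the same RNA. Their difference within a tumor, 1426538_a_at minus 1427739_a_at, was -0.36, -0.26, -0.31 and -0.30 in MT tumors, -0.53, -0.37, -0.65 and -0.35 in KO tumors and -0.55, -0.64, -0.32 and -0.51 in WT tumors. The value was nearer 0 in MT tumors, with little spread, and MT4 lay among the other MT tumors. MT minus WT gave 0.20 and MT minus KO 0.17, each with an exact permutation p of 0.0571 (2-sided, adjusted p = 0.0857 over 3 comparisons), and KO minus WT gave 0.03 (exact p = 0.857). With 4 tumors a side the exact test can reach 0.0286 at the least. None of these 3 tests passed, which does not show that the 2 probe sets gave the same genotype differences.

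Trp53 lies on chromosome 11. The 250 bases before its annotated start are printed because Trp53 is the only member with called probe sets. They are the RefSeq reference sequence of GRCm38.p6, chr11:69580109-69580358 on the plus strand, not a reading of these mice. Capitals mark matches to the motifs searched on both strands: the p53 binding decamer, the TATA box TATAAA, the E-box CACGTG and the E2F motif TTTNNCGC.
Trp53 upstream: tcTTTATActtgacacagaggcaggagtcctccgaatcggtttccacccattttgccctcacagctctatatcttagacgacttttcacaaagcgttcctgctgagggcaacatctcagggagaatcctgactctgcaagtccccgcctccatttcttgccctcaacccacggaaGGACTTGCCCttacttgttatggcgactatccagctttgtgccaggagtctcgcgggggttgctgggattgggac
A single 10-base run with its first base 75 bases before the start matches the p53 binding decamer, which 7.13% of 32851 windows of this length hold, and TATAAA, held by 12.4%, matches only near the far end. The E-box, held by 6.02%, and the E2F motif, held by 4.28%, have no match in this window. The windows before the 2 annotated starts of Trp73 on chromosome 4 match none of the 4 motifs. A match describes the letters and shows no binding.

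Trp63 and Trp73 read low in all tumors, between the 10.5th and the 31.9th percentile of each array at their 5 probe sets. The files hold no detection call, so whether these transcripts are present cannot be read from the levels. None of the 5 probe sets passed the test in any comparison. At an unadjusted p under 0.05, 2 of the 5 passed for KO minus WT, 2 for MT minus WT and 0 for MT minus KO. With the methods' t-test and Benjamini-Hochberg adjustment none passed either.

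Trp63 was somewhat lower in KO and MT tumors than in WT tumors at 1452027_a_at, without passing the test. The MT tumors had levels of 4.65, 4.69, 4.74 and 4.77, the KO tumors 4.69, 4.49, 4.73 and 4.44, and the WT tumors 5.18, 5.54, 5.20 and 4.64. WT1, WT2 and WT3 lay above all MT and KO tumors, and WT4 lay within their range. The KO minus WT difference was -0.55 (SE 0.164, 95% interval -0.91 to -0.20, limma adjusted p = 0.0748) and the MT minus WT difference -0.43 (SE 0.164, 95% interval -0.79 to -0.07, limma adjusted p = 0.197). WT4 decided both calls: without it the differences were -0.72 and -0.60, with limma adjusted p = 0.0134 and 0.0386. Array weights gave -0.52 and -0.43, with adjusted p = 0.0270 and 0.0277. The 3 WT tumors that read high here are those in which 18S ribosomal RNA read 8.90 to 9.33, against 7.51 in WT4, and its part in the Trp63 level was not tested.

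The other Trp63 probe sets moved less. At 1418158_at the MT tumors had 5.37, 5.54, 5.51 and 5.31, the KO tumors 5.36, 5.22, 5.37 and 5.32, and the WT tumors 5.51, 5.52, 5.85 and 5.47. All KO tumors lay below all WT tumors, as at 8.37% of probe sets, with a gap of 0.10, and MT tumors overlapped both. The KO minus WT difference was -0.27 (SE 0.108, limma adjusted p = 0.156). Its limma adjusted p was 0.0460 under array weights, the single alternative in which it passed and one that called 3280 of 22626 probe sets. At 1451876_a_at the levels ranged from 4.51 to 4.82 in MT tumors, from 4.66 to 4.85 in KO tumors and from 4.80 to 5.04 in WT tumors, with a KO minus WT difference of -0.16 (SE 0.103, limma adjusted p = 0.364). All 3 Trp63 probe sets had lower means in MT and in KO tumors than in WT tumors, and readings of 1 gene in the same arrays are not independent. MT minus KO differences were 0.12, -0.03 and 0.13 at 1418158_at, 1451876_a_at and 1452027_a_at, with limma adjusted p from 0.797 to 0.960.

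Trp73 was not called in any comparison. At 1427697_a_at the MT tumors had 4.54, 4.81, 4.94 and 4.64, the KO tumors 4.75, 4.89, 4.91 and 4.65, and the WT tumors 4.91, 4.99, 5.02 and 4.96. The KO tumors lay just below the WT tumors, by 0.01 between the nearest, as 8.37% of probe sets had all KO tumors below all WT tumors, and the MT tumors overlapped both. The KO minus WT difference was -0.17 (SE 0.107, limma adjusted p = 0.358) and the MT minus WT difference -0.24 (SE 0.107, limma adjusted p = 0.249). At 1452325_at the levels ranged from 5.17 to 5.54 in MT tumors, from 5.38 to 5.64 in KO tumors and from 5.34 to 5.54 in WT tumors, and the genotypes overlapped. The KO minus WT difference was 0.02 (SE 0.106, limma adjusted p = 0.942), and its sign turned to -0.04 when each array was centered on its median.

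The intervals bound the rise of Trp63 or Trp73 signal, at these probe sets, in tumors without wild-type p53. Over the 5 probe sets the highest upper end of a 95% interval was 0.25 for KO minus WT, a 1.19-fold higher signal, 0.12 for MT minus WT, a 1.08-fold higher signal, and 0.49 for MT minus KO, a 1.40-fold higher signal. These bounds are in RMA signal, which understates fold changes of transcripts near background. Since it cannot be read whether these transcripts are present, the intervals set no limit on a rise of transcript. The MT intervals also rest mostly on MT1 to MT3, the tumors with the high poly-A controls.

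**Figure D3:**
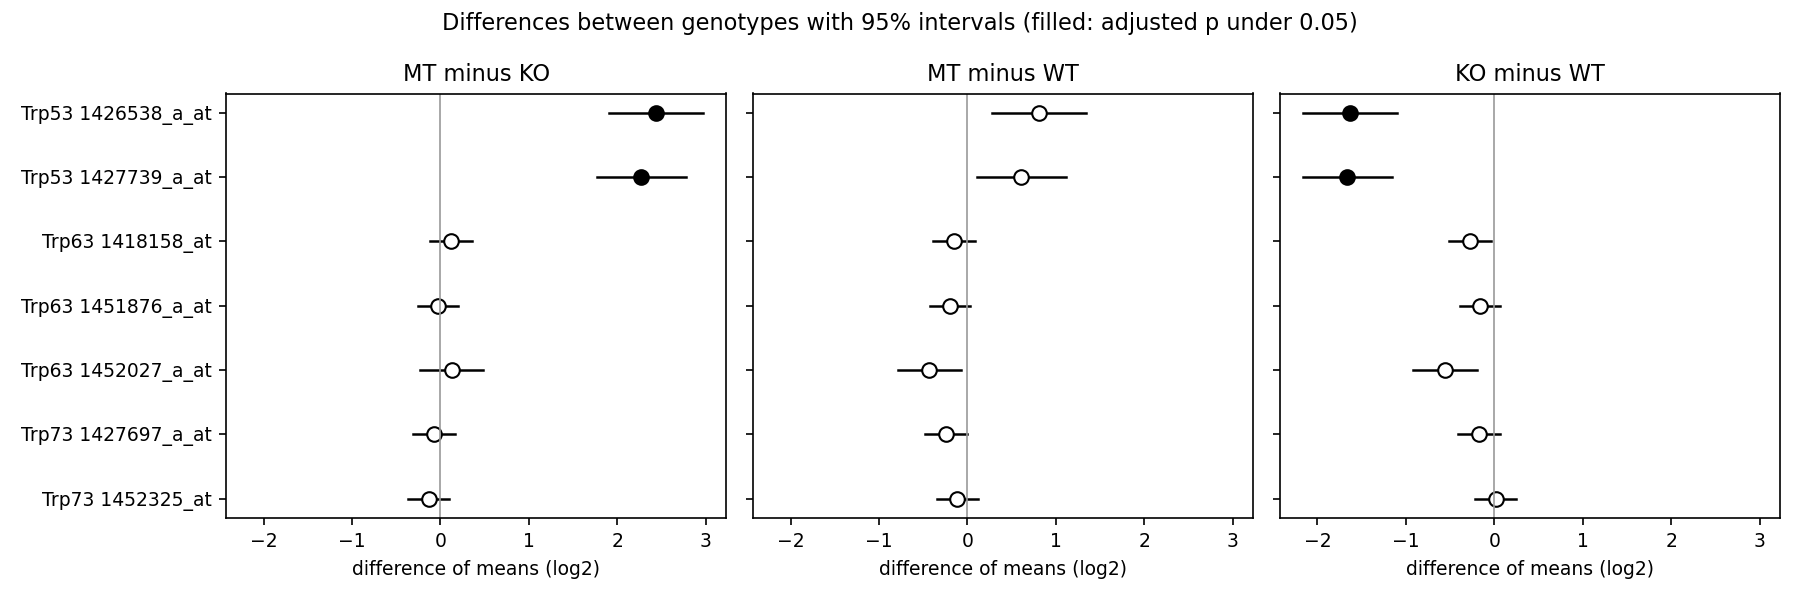
Differences of group means (log2, horizontal axis) are drawn with 95% intervals from the limma fit for each of the 7 probe sets (rows), in a panel for each comparison; filled points had an adjusted p under 0.05. Trp53 is filled for MT minus KO (2.44 and 2.27) and for KO minus WT (-1.63 and -1.66), and every Trp63 and Trp73 point is open.

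Trp63 was set against markers of the cells it is known from, since a change in cell makeup would move both. At 1418158_at, the probe set with the highest mean, its level was related to the mean level of 11 basal markers with Pearson r = 0.438 (permutation p = 0.157, adjusted p = 0.236) and Spearman rho = 0.662 (permutation p = 0.0220, adjusted p = 0.0659 over 3 relations). Without WT2 and MT2, the tumors farthest from the median basal level, r was 0.461, with genotype means removed 0.172, and within the 9 tumors of low poly-A controls 0.417. With 8 myoepithelial markers r was 0.037 (permutation p = 0.905, adjusted p = 0.905, rho = -0.123, permutation p = 0.701), and it was -0.590 without KO3 and WT3, 0.267 with genotype means removed and 0.125 in the 9 tumors. With 12 luminal markers r was -0.558 (permutation p = 0.0746, adjusted p = 0.224, rho = -0.228, permutation p = 0.476), and it was -0.147 without WT1 and WT3, -0.248 with genotype means removed and -0.584 in the 9 tumors. No relation passed the adjusted threshold, and the luminal one rested on the 2 tumors left out. The probe set 1452027_a_at, where Trp63 differed more between genotypes, was not set against these markers.

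The basal marker level itself ranged from 5.52 to 5.77 in MT tumors, 5.44 to 5.59 in KO tumors and 5.51 to 5.79 in WT tumors, and the genotypes overlapped. The defining basal keratins were not high: Krt5 ranked at the 46.1st to the 67.8th percentile and Krt14 at the 28.9th to the 38.4th. Krt5 differed by -0.59 for KO minus WT and by -0.51 for MT minus WT (limma adjusted p = 0.0581 and 0.135). Over the 11 basal markers the median differences were -0.17 and -0.05, and 5 markers had a positive difference in each of these comparisons. Myoepithelial markers averaged 6.56 to 6.79 in MT tumors, 6.63 to 7.29 in KO tumors and 6.54 to 7.12 in WT tumors. Luminal markers averaged 9.90 to 10.37 in MT tumors, 10.19 to 10.68 in KO tumors and 8.98 to 10.40 in WT tumors. All 12 had a positive difference for KO minus WT (median 0.66) and 11 for MT minus WT (median 0.44), where the median of all genes was -0.01 in each. At an unadjusted p under 0.05, 4 and 3 of them passed. None of the 11 basal, 8 myoepithelial or 12 luminal markers was called in any comparison.

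**Figure D4:**
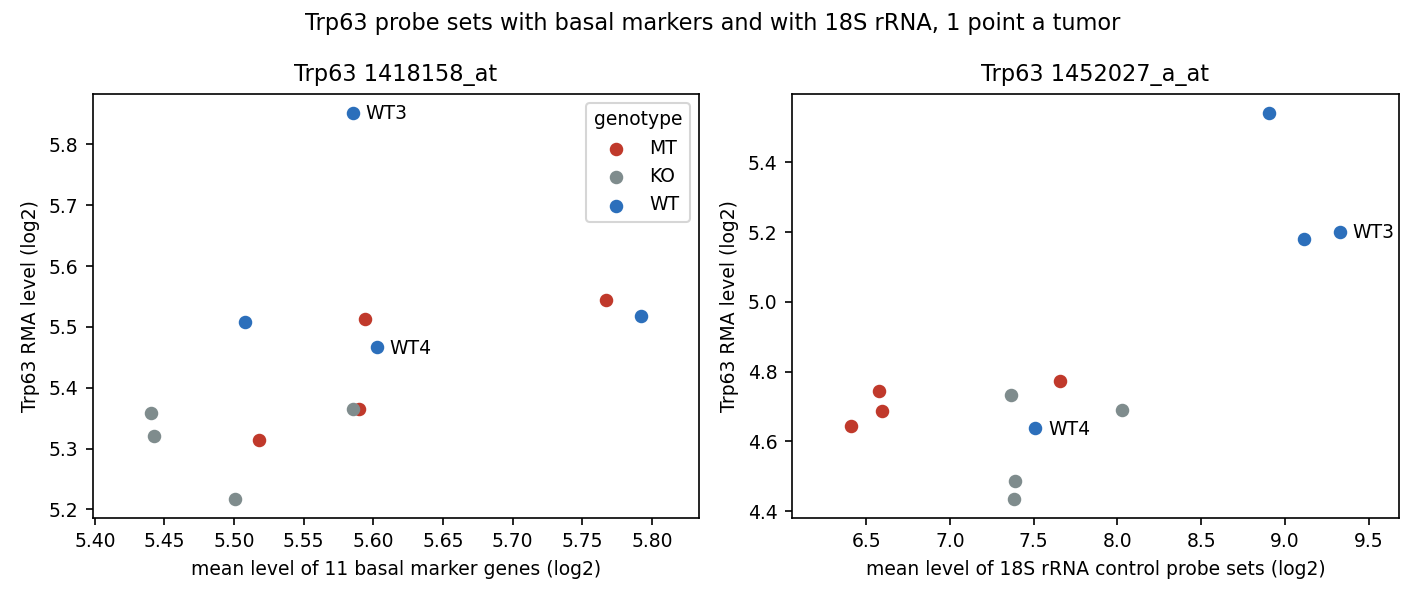
Each point is 1 tumor; the left panel plots Trp63 at 1418158_at against the mean level of 11 basal markers and the right panel Trp63 at 1452027_a_at against the mean level of the 18S ribosomal RNA control probe sets (all axes log2). WT3 is the highest point at the left (5.85), and at the right WT1 to WT3 are apart from the other 9 tumors on both axes, with WT4 among the KO and MT tumors.

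The regulators and partners of the p53 family were described with a list of 28 genes, 22 of them measured. For KO minus WT 3 rose and 0 fell, against 4.58% of 12394 genes called in either direction, and the median difference was 0.16 where that of all genes was -0.01. Cdkn2a, whose locus encodes the p16 cell cycle inhibitor and the Arf inhibitor of Mdm2, averaged 7.76 ± 0.24 in KO tumors and 5.22 ± 0.24 in WT tumors, a difference of 2.54 (SE 0.326, limma adjusted p = 0.00675), and stayed called with any 1 tumor left out. Trp53bp1, a DNA damage response protein that binds p53, was 1.17 higher (limma adjusted p = 0.0443) and Fbxw7, a ubiquitin ligase subunit encoded by a p53 target gene, 0.74 higher (limma adjusted p = 0.0445). Each of these 2 stayed called in only 2 of the 12 fits that leave 1 tumor out. Mdm2 did not pass at its probe set with the highest mean (difference -0.27, limma adjusted p = 0.212). All KO tumors lay below all WT tumors there, as at 8.37% of probe sets. The study, by another test that was not run here, lists Mdm2 among its genes induced by p53. Mdm4, the other main inhibitor of p53, did not pass either (-0.10, limma adjusted p = 0.864). For MT minus WT none of the 22 was called at the adjusted threshold, where 0.411% of genes were, and 5 had an unadjusted p under 0.05. Cdkn2a averaged 6.55 ± 0.81 in MT tumors and 5.22 ± 0.24 in WT tumors, a difference of 1.32 (limma adjusted p = 0.0845). For MT minus KO none was called, where 0.00807% of genes were, and 2 had an unadjusted p under 0.05.

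Several known p53 target genes fell in tumors without wild-type p53. Of 36 measured, 6 fell and 1 rose for KO minus WT, 2 fell and none rose for MT minus WT, and none was called for MT minus KO, with 14, 13 and 2 at an unadjusted p under 0.05. Of all genes 4.58%, 0.411% and 0.00807% were called in these comparisons. The list median was -0.22 for KO minus WT, -0.25 for MT minus WT and -0.01 for MT minus KO, beside -0.01, -0.01 and 0.02 for all genes. Zmat3, which encodes an RNA-binding protein, averaged 6.77 ± 0.16 in KO tumors and 8.01 ± 0.33 in WT tumors (difference -1.23, limma adjusted p = 0.00756). Sesn1, of the stress-response sestrins, fell by 0.94 (limma adjusted p = 0.00845) and Aen, an apoptosis nuclease, by 0.94 (limma adjusted p = 0.0127). Ccng1, which encodes cyclin G1, averaged 8.65 ± 0.25 in KO tumors and 10.04 ± 0.35 in WT tumors (difference -1.39, limma adjusted p = 0.0196). Cdkn1a, the p21 cell cycle inhibitor, and Phlda3, an inhibitor of Akt, also fell, and Xpc, a nucleotide excision repair gene, was the 1 that rose. Zmat3, Sesn1 and Aen stayed called with any 1 tumor left out, Ccng1 in 10 of the 12 such fits, Cdkn1a in 9, Phlda3 in 6 and Xpc in 4. In MT tumors Ccng1 averaged 8.20 ± 0.54 and Zmat3 6.93 ± 0.18, with MT minus WT differences of -1.84 (limma adjusted p = 0.0246) and -1.07 (limma adjusted p = 0.0248). With a block for the poly-A control split neither was called, with differences of -1.06 and -1.22 and limma adjusted p = 0.413 and 0.243, and each stayed called in 7 of the 12 fits that leave 1 tumor out. Comparisons that share WT tumors are not independent of each other.

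**Figure D5:**
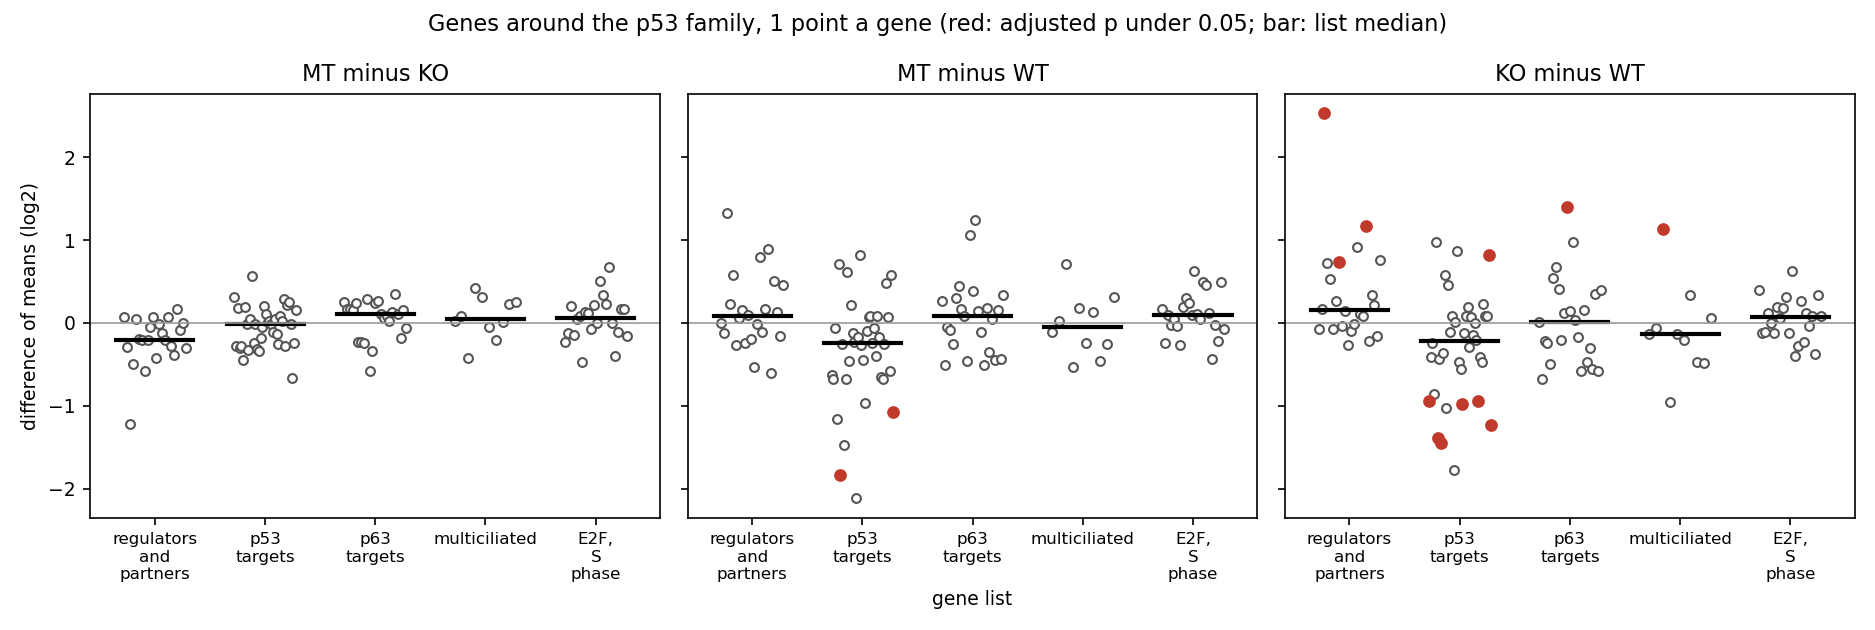
Each point is 1 gene of a list, placed by its difference of group means (log2, vertical axis) in a panel for each comparison, with called genes (adjusted p under 0.05) in red and the list median as a bar. Called genes are seen for KO minus WT, with 6 of 36 p53 targets below 0, and 2 p53 targets for MT minus WT, and none for MT minus KO.

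Few of the listed genes that act with Trp63 or Trp73 were called. Of 23 measured p63 target genes of epithelium, 1 rose for KO minus WT, Itga3, an integrin subunit of epithelial adhesion (difference 1.40, limma adjusted p = 0.0289), a share near the 4.58% of all genes called, and none was called for MT minus WT or for MT minus KO, with 8, 5 and 2 at an unadjusted p under 0.05. Itga3 stayed called in 7 of the 12 fits that leave 1 tumor out. Of 10 measured genes of multiciliated cells, which need p73, 1 rose for KO minus WT, Ift172, an intraflagellar transport gene also used by single primary cilia (difference 1.13, limma adjusted p = 0.0155), and none was called in the other comparisons, with 3, 2 and 2 at an unadjusted p under 0.05. Foxj1, the master regulator of motile cilia, averaged 4.82 in KO tumors and 4.88 in WT tumors, with a KO minus WT difference of -0.06 (limma adjusted p = 0.783). Of 22 E2F and S phase genes none was called in any comparison, and 0, 0 and 1 had an unadjusted p under 0.05 for KO minus WT, MT minus WT and MT minus KO.

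Since both altered alleles were made by targeting the Trp53 locus, the genes beside each member were described. Of the 10 measured genes on either side of Trp53, 1 fell for KO minus WT, Cd68 (-0.91, limma adjusted p = 0.0483), which is also one of the macrophage markers, and none was called for MT minus WT or MT minus KO, with 4, 6 and 1 at an unadjusted p under 0.05. Wrap53, which overlaps the start of Trp53 on the other strand and encodes a telomerase factor, was 0.53 higher in KO tumors and 0.55 higher in MT tumors than in WT tumors, with limma adjusted p = 0.251 and 0.287. Atp1b2, a sodium pump subunit on the other side, had differences of 0.41 and 0.62, with limma adjusted p = 0.434 and 0.290. Polr2a, which encodes the large subunit of RNA polymerase II, was named after its values were seen. It had the largest difference among these neighbors, 1.97 for MT minus WT (limma adjusted p = 0.0652). It differed by 1.18 for MT minus KO (limma adjusted p = 0.412). Both differences rest mostly on MT1 to MT3, the tumors with the high poly-A controls, whose part was not tested. Around Trp63 on chromosome 16, Il1rap, a co-receptor of interleukin-1, rose for KO minus WT (0.80, limma adjusted p = 0.0326), while the immediate neighbors Lpp (0.39, limma adjusted p = 0.415) and Cldn1 (-0.68, limma adjusted p = 0.391) did not pass. Around Trp73, Rpl22, a ribosomal protein gene, fell for KO minus WT (-0.47, limma adjusted p = 0.0475), and the immediate neighbors Dffb (-0.20, limma adjusted p = 0.567) and Wrap73 (0.01, limma adjusted p = 0.956) did not pass. That is 1 of 20 called around each member for KO minus WT, near the 4.58% of all genes. Of these, Cd68 stayed called in 2, Rpl22 in 3 and Il1rap in 7 of the 12 fits that leave 1 tumor out.

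The genes whose levels followed each member most closely over the 12 tumors were listed as a description. With Trp53 at 1427739_a_at they were Slc25a15 (r = 0.963), a mitochondrial ornithine carrier, Pdf (r = 0.944), a mitochondrial deformylase, at a probe set that the list of the study gives to Cog8, Psap (r = 0.930), the precursor of lysosomal saposins, Nr2c2ap (r = 0.917) and Bpgm (r = 0.901), an enzyme of the red cell glycolytic side branch. At the probe set of each that was matched, means in MT, KO and WT tumors were 6.83, 6.27 and 6.72 for Slc25a15 and 11.70, 10.53 and 11.59 for Psap, lowest in KO tumors as for Trp53. With Trp63 at 1418158_at they were Ckmt2 (r = 0.900), a muscle creatine kinase, Igll1 (r = 0.898), a surrogate light chain of B cell precursors, Smarca2 (r = 0.883), a chromatin remodeler, Gata5 (r = 0.880) and Krt13 (r = 0.875), a keratin of stratified epithelium. With Trp73 at 1452325_at they were Fgf22 (r = 0.820), Polr2e (r = 0.816), Sct (r = 0.816), Vps11 (r = 0.815) and Bola2 (r = 0.800). These are the highest correlations among all named probe sets over the same 12 arrays, which share normalization, and no p is given.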

How the data were processed

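RNA of 12 salivary tumors, 4 of each genotype, was measured on 1 Affymetrix mouse array each. The deposited values are log2 levels: per the methods of the study the authors summarized the scanner files by RMA (background correction, quantile normalization, median polish), and the submitters' processing notes name RMA and MAS5 without saying which made the table. Scanner files were not used here. The table holds 22690 probe sets, of which the 64 that read control RNAs were dropped before the tests. The annotation gives 20380 of the 22626 tested probe sets 1 gene symbol, 691 several and 1553 none, and the 2 Trp53 probe sets are named only by the gene list of the study. RefSeq (GRCm38.p6) gave chromosomes, gene order and the promoter sequence.

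A limma model (version 3.58.1 under R 4.3.3, lmFit and eBayes) of the 3 genotype means was fitted to all tumors, with 9 residual and 11.4 moderated degrees of freedom. Tests were 2-sided, p-values were adjusted by Benjamini and Hochberg's method across the 22626 probe sets, and a probe set with an adjusted p under 0.05 is said to be called. The study's SAM was not run. A gene with several probe sets was taken at the one with the highest mean. Correlations were tested with 100000 permutations. The number of arrays limits the precision. Genes were named by rule: every probe set of the members, up to 4 called genes a list and comparison by smallest p, called and immediate neighbors, and the 5 genes most correlated with each member. Further called p53 targets, markers of other cell types, Mdm2, Mdm4, Foxj1, Polr2a and values of named genes in other comparisons were added after their values were seen. The members and lists were chosen with earlier results of these data known. The steps were tested on simulated data. As alternatives, dim probe sets were removed (those not above 6.93, the median of all values, in at least 4 arrays), arrays were centered on their medians or normalized by cyclic loess, 8 tumors were fitted alone, moderation used a trend and was robust, arrays were weighted, the methods' t-test was run, blocks were added for the tumor number or the poly-A control split, and each tumor was left out. Other steps ran in Python 3.11.15 with scipy 1.17.1, numpy 2.4.6, pandas 2.3.3 and, for figures, matplotlib 3.10.9.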

Additional observations from a re-analysis of the deposited data

Results flagged for a closer look

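In each probe set and genotype the gap of the highest or lowest of 4 tumors to its neighbor was divided by the range of the group. Of 21 groups 2 exceeded the 95% critical value of Dixon's test for 4 samples, and chance alone flags about 1 in 20 groups. Trp53 at 1427739_a_at read 8.18 in MT4, below the other MT tumors at 9.13 to 9.29, with a ratio of 0.850. Trp63 at 1418158_at read 5.85 in WT3, above the other WT tumors, with a ratio of 0.866.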

How the results depend on the processing

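The call of Trp53 for KO minus WT was kept in all alternatives but the methods' t-test (-1.63 and -1.66 with adjusted p = 0.0686 and 0.0633). For MT minus KO it was lost in the fit to 8 tumors and with the t-test (2.44 and 2.27), with a block for the tumor number and with a block for the poly-A control split (1.69 and 1.51); the cause was not tested. Leaving out 1 tumor gave 2.30 to 2.69 and 2.15 to 2.52. For MT minus WT it passed with array weights (0.82 and 0.72) and without MT4, over a range of 0.66 to 1.06 and 0.49 to 0.86, and the poly-A block turned 1427739_a_at to -0.15. The tumor numbers, replicate numbers in the sample titles, were not taken as pairs. Correlations of the 12 same-numbered pairs ran from 0.00226 to 0.335, with 6 above 0.1. Different-numbered pairs were not set beside them, so these values do not decide whether the numbers mark pairs. The replicate block left the differences as they were, moved adjusted p for Trp53 MT minus KO to 0.0768 and changed no other call of a member. Trp63 passed for KO minus WT with array weights at 1418158_at (-0.38) and 1452027_a_at (-0.52), and for MT minus WT at 1452027_a_at (-0.43, F 9.62). Leaving out 1 tumor gave at 1452027_a_at -0.72 to -0.42 for KO minus WT, -0.60 to -0.29 for MT minus WT and F 4.16 to 18.7. Signs turned near 0 for Trp73 1452325_at KO minus WT (-0.0364 with centering, -0.0337 to 0.0520 leaving out 1 tumor), for Trp63 MT minus KO at 1418158_at (-0.00223 with the poly-A block) and at 1451876_a_at (-0.0718 to 0.0320), for the difference of the Trp53 probe sets, KO minus WT (-0.0112 to 0.0941), and for Trp63 with myoepithelial markers (-0.491 to 0.236). Leaving out 1 tumor gave 1 to 4 called regulators, 3 to 7 p53 targets, 0 to 3 p63 targets and 1 to 3 multiciliated genes for KO minus WT, and 0 to 1, 0 to 5, 0 to 1 and 0 to 1 for MT minus WT. With the poly-A block 1 regulator was called for KO minus WT and 0 p53 targets for MT minus WT, and 4 p53 targets without dim probe sets. The filter on dim probe sets removed every Trp63 and Trp73 probe set, so it gave no value for them. Counts over all probe sets with array weights were 3280, 4973 and 44 for KO minus WT, MT minus WT and MT minus KO, against 1035, 83 and 2; with the t-test 10, 0 and 0; in fits to 8 tumors 374, 11 and 0; with the poly-A block 1102, 19 and 13; and without MT4 1102, 801 and 235.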
